A study of Mus musculus with 6 samples.

Results

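The genes described here are 10 members of the activator protein 1 (AP-1) and immediate early groups in mouse liver: Jun, Junb, Jund, Fos, Fosl2, Atf3, Egr1, Btg2, Ier2 and Myc. They were read by symbol from a table of 16140 genes, and the set was selected on the knockout and control values of an earlier analysis of the same libraries. Their own differences between the groups are therefore given as a description. Where a member is said to be called, this places it in the fit over the whole table and supports nothing about the member. Poly(A)-selected RNA of whole liver was sequenced in bulk from 3 knockout and 3 control samples, all on a normal diet. The knockouts had the genotype Selofl/fl Alb-Cre, floxed alleles of Selenoo, which encodes the mitochondrial selenoprotein SelO, with Cre driven by the albumin promoter and so active in hepatocytes. The controls had the genotype Selofl/fl and no Cre. Both groups thus carried the floxed alleles, and loss of Selenoo and presence of Cre cannot be told apart. The sources used here give no strain, sex or age. Whether every library is a different mouse is not stated in the labels, so the errors measure the spread between these samples.

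Immediate early genes are switched on within minutes of a stimulus, without new protein synthesis, and their mRNAs are usually short-lived. AP-1 is a dimer of basic leucine zipper (bZIP) proteins: the Jun proteins pair with each other or with Fos proteins, whereas Fos proteins need a Jun partner to bind DNA. In liver this group is known for its response to partial hepatectomy, injury, fasting signals and tissue handling. Kinases of the mitogen-activated protein (MAP) kinase cascades act on these genes and proteins, and Egr1, Myc, Btg2 and Ier2 are induced by many of the same stimuli.

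The members lie on 7 chromosomes in RefSeq's annotation of GRCm38.p6. Jun is at chr4:95049036-95052222 on the minus strand, Btg2 at chr1:134074865-134079155 on the minus strand and Myc at chr15:61985341-61990361 on the plus strand. Selenoo lies on the same chromosome as Myc, at chr15:89089038-89100339 on the plus strand. The other members are Atf3 on chromosome 1, Fosl2 on 5, Junb, Jund and Ier2 on 8, Fos on 12 and Egr1 on 18. The deposited row for Jund pairs a start on an unplaced scaffold with an end on chromosome 8, and the deposited starts of Jun (95047647) and Fosl2 (32136173) differ from RefSeq's, so RefSeq positions are used here.

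Promoter sequence was at hand for 7 of the 10 members: Jun, Junb, Jund, Fos, Fosl2, Atf3 and Btg2. Egr1, Ier2 and Myc had no entry. The 250 bases before each RefSeq start were searched on both strands for 5 motifs: TGANNTCA, the cyclic AMP response element (CRE)-like site that Jun, Atf and Creb proteins can bind, the full CRE TGACGTCA, which is a case of it, the AP-1 site TGANTCA, the E-box CACGTG that Myc with Max binds, and the CArG box of serum response factor. TGANNTCA was found in 3 of the 7 promoters, those of Btg2, Jun and Jund, against 11.9% of 32851 promoters of the same length in the table. The full CRE was found in 1, that of Btg2, against 1.55%. The AP-1 site, the CArG box and the E-box were found in 0 of the 7, against 6.75%, 1.47% and 6.02% of all promoters. A match is a description of letters in this window and not a bound site. Sequence outside the 250 bases was not searched, so a missing match does not show that a gene lacks such a site. The 3 sequences are shown because they carry the matches and because Jun and Btg2 are the 2 members whose groups differed past the threshold. Each is printed 5′ to 3′ on the gene's own strand, ends at the base before the annotated start, and has TGANNTCA in capitals.
Btg2 promoter, chr1:134079156-134079405 (GRCm38.p6, minus strand): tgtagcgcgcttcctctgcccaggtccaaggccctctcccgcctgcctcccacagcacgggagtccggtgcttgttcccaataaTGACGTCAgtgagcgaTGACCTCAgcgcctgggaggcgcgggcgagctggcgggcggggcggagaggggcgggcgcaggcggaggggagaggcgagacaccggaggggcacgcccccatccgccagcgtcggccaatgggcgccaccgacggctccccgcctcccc
Jun promoter, chr4:95052223-95052472 (GRCm38.p6, minus strand): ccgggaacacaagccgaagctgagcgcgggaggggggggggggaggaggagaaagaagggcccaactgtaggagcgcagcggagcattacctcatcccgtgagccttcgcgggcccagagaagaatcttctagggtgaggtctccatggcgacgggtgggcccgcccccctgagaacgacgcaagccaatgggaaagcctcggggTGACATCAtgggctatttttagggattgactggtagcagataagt
Jund promoter, chr8:70697489-70697738 (GRCm38.p6, plus strand): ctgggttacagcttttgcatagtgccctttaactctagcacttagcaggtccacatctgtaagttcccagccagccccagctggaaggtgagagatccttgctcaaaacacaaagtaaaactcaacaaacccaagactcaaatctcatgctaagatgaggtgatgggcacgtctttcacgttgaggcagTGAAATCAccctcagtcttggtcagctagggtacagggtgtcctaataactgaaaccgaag
Btg2 carried a pair of matches, TGACGTCA from 166 to 159 bases and TGACCTCA from 150 to 143 bases before the start. Jun carried TGACATCA from 45 to 38 bases before the start. In Jund the match was TGAAATCA, from 61 to 54 bases before the start. RefSeq places Jund at chr8:70697739-70700616, a longer stretch than the 1668 bases of its GENCODE M21 transcript. The starts in the 2 annotations were not compared, so the Jund window and distance hold for RefSeq's start only.

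The members also shared a compact gene structure. It was not used in the selection, but the members were grouped as AP-1 and immediate early genes, and Jun, Junb and Jund belong to the same family. They are therefore not independent observations, and the structure describes the gene class, not these libraries. In the longest GENCODE M21 protein-coding transcript of each gene, Jun, Junb, Jund and Ier2 had 1 exon, as did 1.77% of the 11944 tested genes with a transcript. All 10 members had at most 4 exons, against 20.1% of tested genes. Their median genomic span was 3668 bases, against 22213 bases for tested genes. The pentamer ATTTA, the core of AU-rich elements that shorten mRNA life, was found in the 3′ untranslated region of 9 members, against 68.8% of tested genes. The member without it was Ier2. Its median density was 2.4 per kilobase in members and 1.3 per kilobase in tested genes. Fosl2 had the most copies, 8, followed by Btg2 with 5 and by Jun and Fos with 4 each. The copies of Fosl2 lay in 4653 bases (1.72 per kilobase) and those of Btg2 in 2199 bases (2.27 per kilobase). By density, Fos (4.91), Myc (4.52) and Junb (4.12 per kilobase) came first.

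Library totals ran over 15550289 to 18680195 estimated counts, and 12173 genes were high enough to be tested. Selenoo, the targeted gene, had 6.29, 9.31 and 7.67 CPM (counts scaled to library size with TMM factors) in the knockout libraries, against 94.8, 84.2 and 96.0 CPM in the control libraries. It fell by 3.56 ± 0.17 on the log2 scale. Across all tested genes, edgeR's quasi-likelihood test with Benjamini-Hochberg adjustment at 0.05 called 181 genes, or 1.49%, of which 94 were higher (0.772%) and 87 lower (0.715%) in knockout livers. With 1 library left out the number called was 43 (without knockout replicate 2) to 668 (without control replicate 3). Hepatocyte markers, among them Alb and Ttr, were present in every library, summing to 170387 to 198013 CPM in knockout and 159015 to 196298 CPM in control livers. Log2 CPM correlated across genes at 0.986 to 0.989 within knockout, 0.969 to 0.981 within control and 0.960 to 0.977 between the groups.

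All 10 members passed the filter on low counts. Jun and Btg2 were called higher in knockout livers and no member was called lower. That is 2 of 10, beside 0.772% of tested genes, but the members were chosen on this contrast and nothing is read from the share. Fold changes were positive for 7 members and negative for 3, with a median of 0.24 on the log2 scale, against -0.02 over all tested genes. The signs of Junb, near 0, and Ier2 turned with the scaling or with removal of length and GC trends. Groups did not overlap, with knockout higher, for Jun and Btg2, as for 13.3% of tested genes. In CPM they did not overlap, with knockout lower, for Atf3, as for 11.9% of tested genes. In the authors' deposited table the same 2 members, Jun and Btg2, had a q-value under 0.05, beside 3.47% of genes with a q-value there. In bulk tissue, a change in the number of cells of a type and a change in RNA per cell cannot be told apart, and this holds for every value given here.

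**Figure D1:**
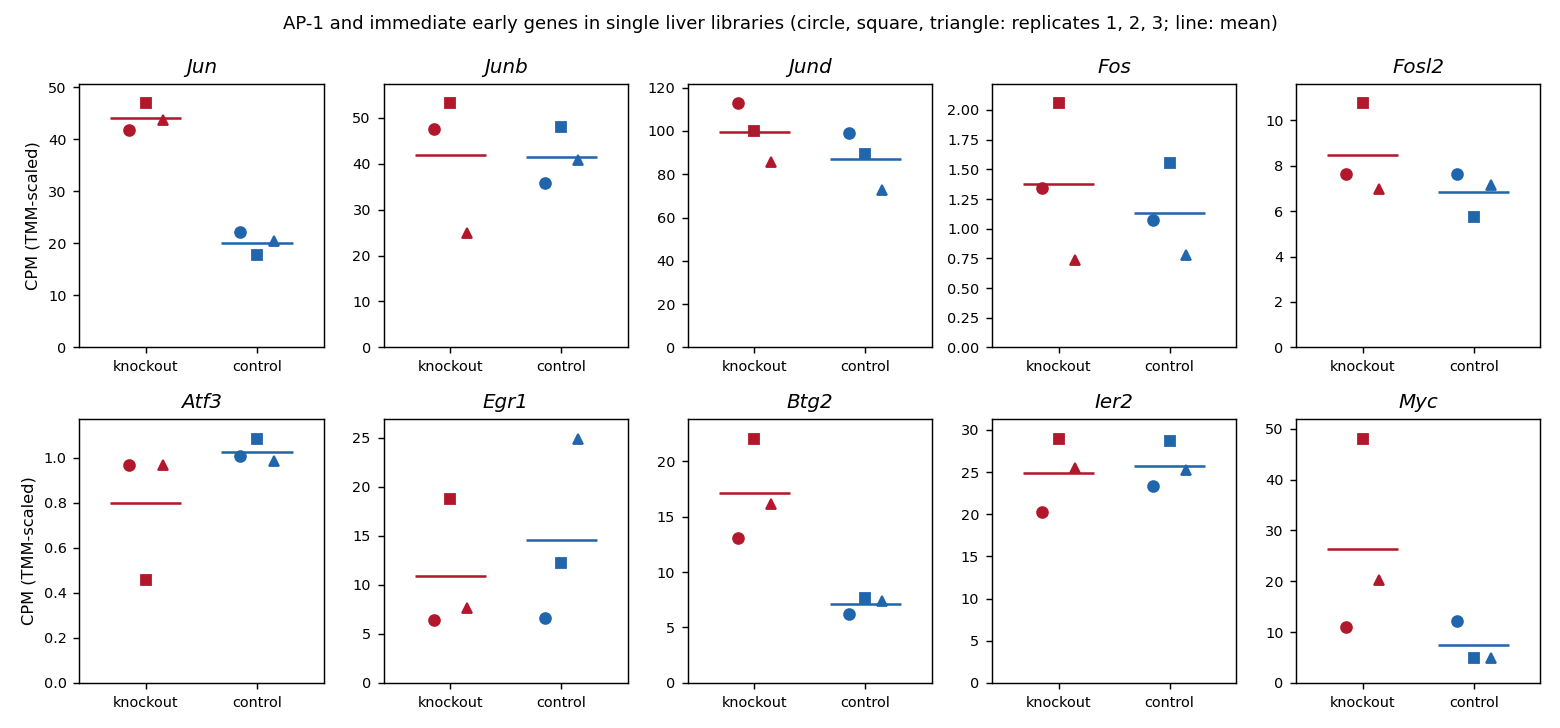
CPM of each of the 10 genes in single libraries, knockout on the left and control on the right of each panel, with replicates 1, 2 and 3 as circle, square and triangle and the group mean as a line. Jun and Btg2 have every knockout library above every control library, the Myc and Egr1 libraries are widely scattered, and each y axis starts at 0.

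Jun encodes c-Jun, the AP-1 subunit that c-Jun N-terminal kinases (JNK) activate, and liver is known to need it to regenerate. Its level was 41.9, 47.0 and 43.7 CPM in knockout livers, against 22.3, 17.8 and 20.5 CPM in control livers. The lowest knockout library was thus well above the highest control library. The means were 44.2 ± 2.57 CPM in knockout and 20.2 ± 2.27 CPM in control livers (SD, n = 3 each), a log2 fold change of 1.13 ± 0.13 (SE), or 2.19-fold. Jun was the steadiest of the members: its standard deviation of log2 CPM within groups was 0.13, and only 18.1% of tested genes had a smaller one. With any 1 library left out, its fold change was 2.07 to 2.31.

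Junb, which encodes a Jun protein that often restrains c-Jun, stood at 47.6, 53.1 and 25.0 CPM in knockout livers, against 35.7, 48.1 and 40.8 CPM in control livers. The highest and the lowest value were both in knockout libraries, and the log2 fold change was 0.01 ± 0.25. Its sign was negative under upper-quartile scaling (-0.03). Jund, the Jun protein that is expressed in resting cells, had 113, 99.9 and 85.8 CPM in knockout livers, against 99.0, 89.3 and 72.8 CPM in control livers. Its groups overlapped and its log2 fold change was 0.19 ± 0.16. Neither gene was called, which does not show that their levels were alike in the 2 groups.

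On the TPM scale, which divides by transcript length and so allows genes to be compared, the make-up of the Jun family could be followed in each library. Jun made up 16.4%, 18.3% and 23.5% of the summed TPM of Jun, Junb and Jund in knockout livers, against 11.2%, 8.61% and 11.6% in control livers. The knockout shares were all above the control shares, with means of 19.4 ± 3.70% in knockout and 10.5 ± 1.61% in control livers (SD, n = 3 each). This share rests on the same Jun values as the fold change and is no second line of evidence. Junb made up 34.4%, 38.3% and 24.9% in knockout livers, against 33.1%, 43.0% and 42.5% in control livers, and Jund remained the most abundant Jun transcript in all 6 libraries. Its share was 43.4% to 51.6% in knockout and 45.9% to 55.7% in control livers. The summed TPM of the family was 115, 106 and 76.1 in knockout livers and 70.6, 91.4 and 82.2 in control livers, so the sums overlapped.

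**Figure D2:**
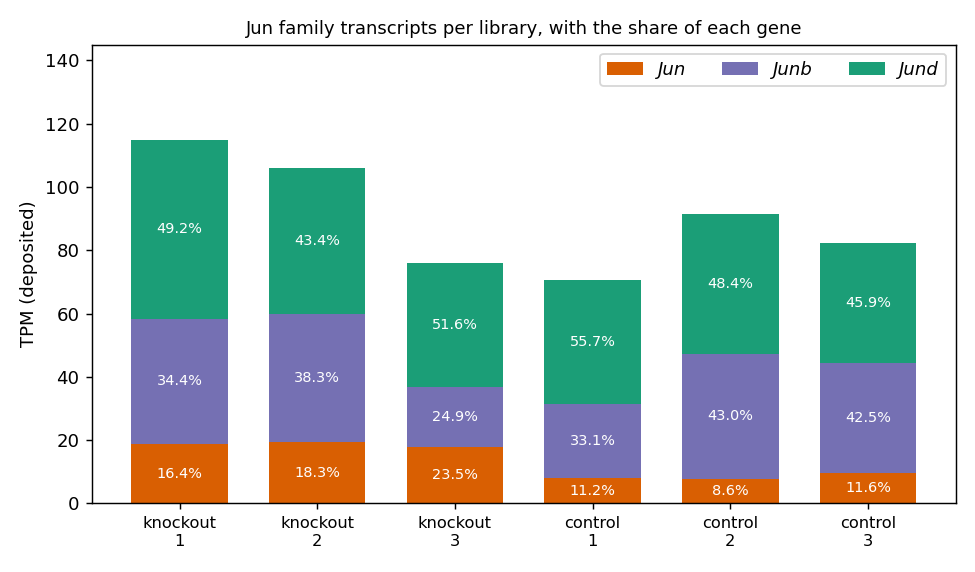
Deposited TPM of Jun, Junb and Jund stacked for each library, knockout libraries on the left and control libraries on the right, with each gene's percentage of the sum printed in its segment. The Jun segment takes 16.4% to 23.5% in knockout and 8.6% to 11.6% in control libraries, while the whole bars overlap in height.

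In TPM, the Fos partners were far less abundant than the Jun genes. Fos, the classical partner of c-Jun and a textbook immediate early gene, had 25, 36 and 13 counts in knockout livers, against 16, 30 and 15 counts in control livers. These are 1.34, 2.06 and 0.739 CPM in knockout and 1.07, 1.55 and 0.778 CPM in control livers. All the counts were above 3, a count that stands for 0.161 to 0.193 CPM in these libraries before TMM factors are applied. The groups overlapped, and the log2 fold change of 0.28 ± 0.42 was smaller than its error. Fosl2 encodes Fra-2, a Fos protein without the strong activation domain of c-Fos. It had 7.63, 10.7 and 6.99 CPM in knockout livers, against 7.65, 5.74 and 7.16 CPM in control livers, a log2 fold change of 0.31 ± 0.20. Its groups overlapped as well, and 1 knockout library, replicate 2, lay apart above the other 5.

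Fosl2 was the larger part of the Fos family in every library, at 67.4 ± 6.51% of the summed TPM of Fos, Fosb, Fosl1 and Fosl2 in knockout and 65.3 ± 11.5% in control livers (SD, n = 3 each). Fosb had 3, 0 and 1 counts in knockout and 1, 2 and 2 counts in control livers, and Fosl1 had 0, 0 and 0 counts in knockout and 0, 2 and 0 counts in control livers. Both were too low to be tested. Summed Jun family TPM was 36.1 ± 6.29 times the summed Fos family TPM in knockout livers and 35.2 ± 0.70 times in control livers. The ratio thus differed between the groups by less than it varied among the knockout libraries.

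Atf3, a stress-induced bZIP factor that can pair with Jun proteins, was the only member whose control libraries all lay above its knockout libraries in TMM-scaled CPM. In TPM and FPKM its groups overlapped. It had 18, 8 and 17 counts in knockout livers, against 15, 21 and 19 counts in control livers, or 0.967, 0.457 and 0.966 CPM in knockout and 1.01, 1.09 and 0.985 CPM in control livers. Of the knockout libraries, replicates 1 and 3 lay just under the control values and replicate 2 well below them. The log2 fold change was -0.36 ± 0.36, not called, and without knockout replicate 2 it was -0.08.

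Egr1 encodes a zinc finger factor that growth factors and stress induce quickly. Its level was 6.45, 18.7 and 7.67 CPM in knockout livers, against 6.64, 12.2 and 24.9 CPM in control livers. The ranges of the groups overlapped widely, and the control libraries alone differed by up to 3.75-fold. Its log2 fold change was -0.42 ± 0.49, and it was 0.20 without control replicate 3 and -1.05 without knockout replicate 2. A direction for Egr1 was thus not detectable with these 6 libraries.

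Ier2, a short immediate early gene whose product acts in the nucleus, had 20.3, 29.0 and 25.5 CPM in knockout livers, against 23.4, 28.6 and 25.3 CPM in control livers. The groups overlapped almost wholly, with a log2 fold change of -0.05 ± 0.16 that turned to 0.06 when trends on transcript length and GC content were removed.

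Btg2 encodes an antiproliferative protein that p53 induces and that recruits the CCR4-NOT deadenylase to mRNAs. It had 13.1, 22.1 and 16.2 CPM in knockout livers, against 6.17, 7.70 and 7.36 CPM in control livers. All 3 knockout libraries were above all control libraries, though they spread more widely. The means were 17.1 ± 4.55 CPM in knockout and 7.08 ± 0.80 CPM in control livers (SD, n = 3 each), a log2 fold change of 1.27 ± 0.21, or 2.41-fold. With 1 library left out, the fold change was 2.07 to 2.70 and always upward. The call was lost without knockout replicate 2 (log2 fold change 1.05), knockout replicate 3 (1.31) or control replicate 2 (1.33), and also with limma on log2(FPKM + 1), where the log2 difference was 0.94.

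Myc, the bHLH factor that drives growth and ribosome synthesis, had the largest log2 fold change of the members and was not called. Its level was 10.9, 48.1 and 20.3 CPM in knockout livers, against 12.2, 4.91 and 4.98 CPM in control livers. Knockout replicate 1 lay below control replicate 1, so the groups overlapped in CPM. In TPM the same libraries were at 6.70 in knockout and 5.93 in control, and the groups did not overlap. The means were 26.4 ± 19.3 CPM in knockout and 7.37 ± 4.20 CPM in control livers (SD, n = 3 each), a log2 fold change of 1.86 ± 0.53, or 3.63-fold. Knockout replicate 2 alone set much of that size: without it the fold change was 2.14, and without control replicate 1 it was 5.33. In the authors' deposited table, Myc had a log2 fold change of 1.85.

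**Figure D3:**
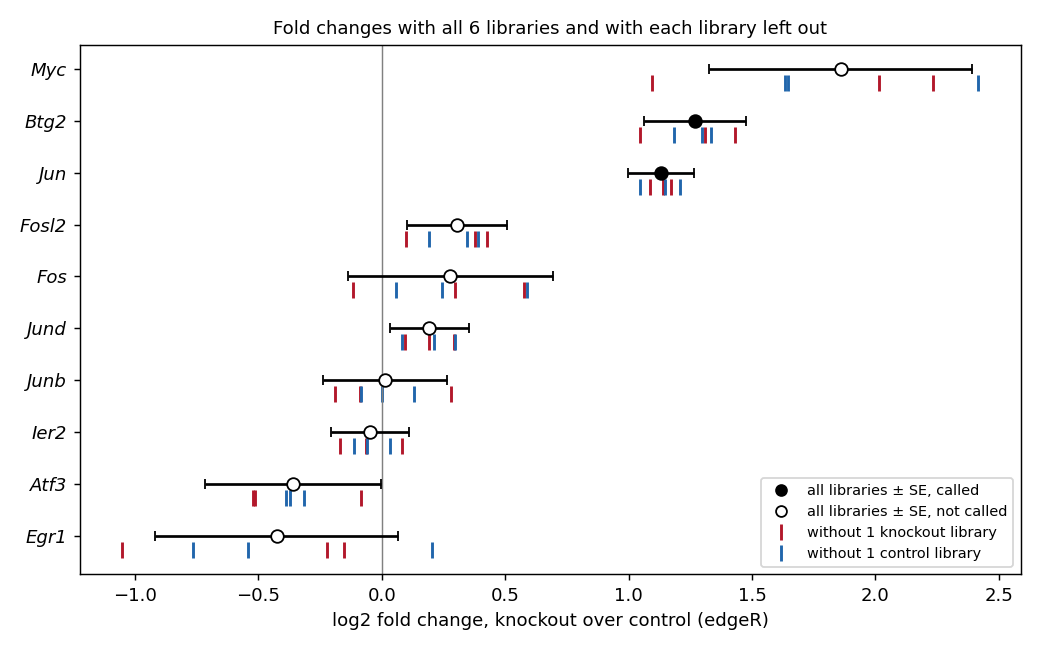
Log2 fold change (knockout over control) of the 10 genes with all 6 libraries as circles with SE, filled where called, and, under each circle, ticks for the value without 1 knockout (red) or 1 control (blue) library. The ticks of Jun lie within 1.05 to 1.21, whereas those of Myc run over 1.09 to 2.41 and those of Egr1 over -1.05 to 0.20.

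In mean TPM over all 6 libraries, the order of the levels was Jund (43.9), Junb (32.8), Ier2 (24.7), Jun (13.6), Myc (9.54), Egr1 (5.73), Btg2 (5.29), Fosl2 (1.68), Fos (0.837) and Atf3 (0.657). The ranges of every pair of neighbours in that order overlapped. Within a library, Jund was above Junb, Ier2 above Jun, Btg2 above Fosl2 and Fosl2 above Fos in all 6 libraries, and Junb was above Ier2 and Jun above Myc in 5. Myc was above Egr1 in 4 libraries, and Egr1 above Btg2 and Fos above Atf3 in 3, so those neighbours did not keep their order.

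Myc and Egr1 varied more between libraries of 1 group than almost all tested genes. The median standard deviation of log2(CPM + 0.1) within groups was 0.22 over all tested genes, and 7 of the 10 members exceeded it. By definition as many tested genes lie above a median as below it, so this count is not far from that share. Myc had 0.92 and Egr1 0.88, with 99.1% and 99.0% of tested genes below them. Fos followed with 0.58, Junb with 0.44, Atf3 with 0.39, Btg2 with 0.29 and Fosl2 with 0.27. For Btg2 and Fosl2, 68.5% and 64.7% of tested genes had a smaller value. The values were not compared with genes of like level, and those of Fos and Atf3 include the counting error of 8 to 36 counts per library. Jund and Ier2 had 0.21 each, near the median, and Jun had the lowest value. Knockout replicate 2 was the highest knockout library for 8 of the 10 members, all but Jund and Atf3, whereas it was the highest for 30.6% of all tested genes. Several of these genes are known to be induced together, so the 8 are not independent observations.

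Tested genes, predicted gene models left out, were ranked by how like Jun their pattern over the 6 libraries was. The 5 most like Jun were Ppm1k, G6pc, Pdp2, Serpina1a and Ppargc1a, with root mean square differences of centred log2 CPM of 0.13 to 0.15. The ranking used the difference between the groups, on which Jun itself was chosen. That these genes were higher in knockout livers was therefore fixed by the ranking and supports nothing. G6pc, the catalytic subunit of glucose-6-phosphatase that releases glucose from hepatocytes, had 511, 631 and 600 CPM in knockout livers, against 335, 298 and 291 CPM in control livers. Ppargc1a, a transcriptional coactivator of mitochondrial and fasting genes, had 9.83, 10.7 and 11.7 CPM in knockout livers, against 4.36, 4.34 and 5.50 CPM in control livers. Ppm1k and Pdp2 encode mitochondrial phosphatases of branched-chain amino acid and pyruvate metabolism. Serpina1a belongs to a family of near-identical copies between which reads may be split, so its value is uncertain. Among the members, Btg2 ranked 78 of the genes ranked in this way and the next, Fosl2, 1327, with the other 7 farther away, down to Egr1 at 11453. Btg2, like Jun, was chosen on the difference between the groups, so its place as the nearest member was largely fixed too.

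Genes around the members were taken from 7 lists of 101 genes in all, of which 93 were tested. Of these, 7 rose in knockout livers, beside 0.772% of all tested genes, and none was called lower, beside 0.715%. A positive log2 fold change was found for 59 and a negative one for 34, beside 5822 positive of 12173 tested genes, and the median was 0.10, against -0.02 over all tested genes. Groups did not overlap, with knockout higher, for 20 of the 93, beside 13.3% of all tested genes. All 7 lists were chosen with earlier results of these data known, so nothing is read from these shares. Every adjusted p below is from edgeR's quasi-likelihood test with Benjamini-Hochberg adjustment over all tested genes. Of the 7 calls only that of Map3k13 held without each library in turn. The other 6 were lost when knockout replicate 1, knockout replicate 2 or control replicate 2 was left out, with adjusted p of 0.0514 to 0.171. Without knockout replicate 3, Btg1, Dusp8, Mrtfb and Tob1 were lost (0.0818 to 0.142), and Dusp8 also without control replicate 1 (0.0501).

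**Figure D4:**
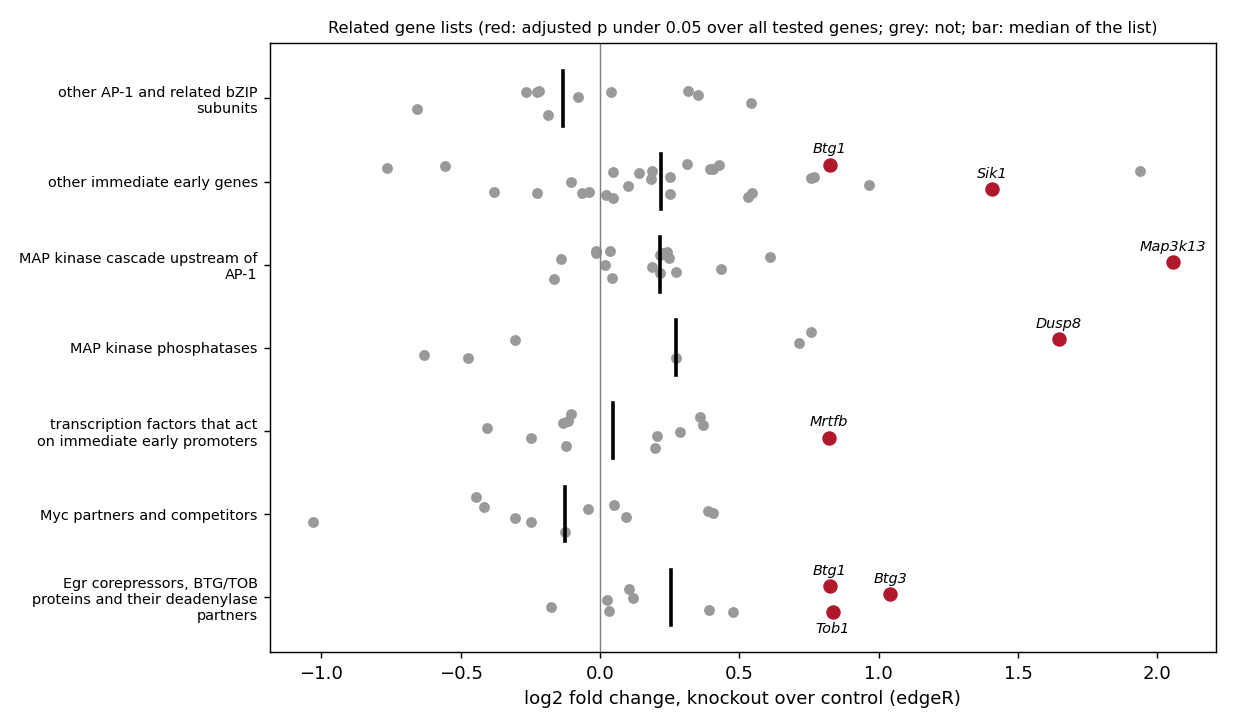
Log2 fold change (knockout over control) of the tested genes of 7 related lists, 1 list per row, with genes called at an adjusted p under 0.05 in red and named, other genes in grey and the median of each list as a black bar. The called genes are all to the right of 0, and list medians run from -0.13 for other AP-1 subunits to 0.27 for MAP kinase phosphatases; Btg1 is in 2 lists.

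Among other AP-1 and related bZIP subunits, 10 of 13 genes were tested, none was called, and the median log2 fold change was -0.13, with 4 positive and 6 negative. In this list 1 gene had an unadjusted p under 0.05. Atf2, a JNK and p38 target that pairs with c-Jun, had 18.5, 17.9 and 18.9 CPM in knockout livers, against 12.9, 13.8 and 17.6 CPM in control livers, and was not called (log2 fold change 0.32 ± 0.15, adjusted p = 0.296). The DESeq2 Wald test and limma-voom also called none of the list.

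In the MAP kinase cascade upstream of AP-1, 1 of 17 tested genes rose and 13 had a positive log2 fold change, with a median of 0.21. The gene that rose was Map3k13, which encodes LZK, a kinase at the top of the JNK branch. It had 24.0, 21.2 and 15.2 CPM in knockout livers, against 3.29, 4.65 and 6.48 CPM in control livers. The lowest knockout library was above every control library, and the log2 fold change was 2.05 ± 0.26 (4.15-fold, adjusted p = 0.00999). Without each library in turn it was 3.62-fold to 5.03-fold. Map3k5, which encodes ASK1, a redox-sensitive kinase of the JNK and p38 branches, had 27.4, 35.9 and 36.4 CPM in knockout livers, against 19.4, 20.2 and 25.7 CPM in control livers, and was not called (0.61 ± 0.16, adjusted p = 0.103). It was called by DESeq2, and by edgeR without control replicate 3. The kinases are measured here only as mRNA, and their activity was not.

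Of 7 MAP kinase phosphatases, which switch these kinases off, 1 rose, 4 had a positive log2 fold change, and the median was 0.27. Dusp8, a phosphatase that prefers JNK and p38, had 41, 31 and 54 counts in knockout livers, against 10, 14 and 16 counts in control livers. Its libraries did not overlap, and the log2 fold change was 1.65 ± 0.31 (3.13-fold, adjusted p = 0.0360). Dusp6, a phosphatase that prefers ERK, was next by p and went the other way, with 20.6, 17.7 and 22.9 CPM in knockout livers, against 22.8, 25.8 and 46.1 CPM in control livers. Its groups overlapped and it was not called (-0.63 ± 0.25, adjusted p = 0.221). Dusp1, itself an immediate early gene and named after its values were seen, had 44.9, 51.3 and 44.9 CPM in knockout livers, against 24.1, 43.7 and 15.7 CPM in control livers, and did not pass (0.76 ± 0.30, adjusted p = 0.227), though it was called without control replicate 2.

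Among 28 tested other immediate early genes, 2 rose, Sik1 and Btg1, and 21 had a positive log2 fold change, with a median of 0.22. Sik1 is a kinase gene that cyclic AMP induces through CREB and that restrains CREB coactivators. It had 60.0, 44.1 and 34.8 CPM in knockout livers, against 11.7, 20.8 and 19.7 CPM in control livers, with a log2 fold change of 1.41 ± 0.25 (2.65-fold, adjusted p = 0.0326). Its knockout libraries were all higher, with a spread of 1.73-fold among themselves. Egr2, Egr3, Nr4a3 and Arc were too low to be tested.

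Transcription factors that act on immediate early promoters gave 1 call among 12 tested genes, with 6 positive and 6 negative log2 fold changes and a median of 0.05. Mrtfb, a coactivator of serum response factor, had 21.1, 21.5 and 22.0 CPM in knockout livers, against 10.9, 11.2 and 14.4 CPM in control livers, a log2 fold change of 0.82 ± 0.15 (adjusted p = 0.0316). Elk3, an Ets factor that represses serum response genes, had a log2 fold change of -0.41 ± 0.15 and was not called (adjusted p = 0.194). Of 11 tested Myc partners and competitors, none was called and 2 had an unadjusted p under 0.05. DESeq2 and limma-voom called none either. The median log2 fold change was -0.13, with 4 positive and 7 negative. The genes of smallest p were Mxi1, which competes with Myc for Max (0.39 ± 0.12, adjusted p = 0.139), and Mga (-0.44 ± 0.18, adjusted p = 0.228).

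The list that holds the Btg2 relatives, the Egr corepressors and the deadenylase subunits had 3 calls among 10 tested genes, 9 positive log2 fold changes and a median of 0.26, beside 0.772% called higher and 5822 of 12173 positive over all tested genes. The lists were chosen with earlier results of these data known, so nothing particular to this list is read from its count. The 3 were Btg1, Btg3 and Tob1, which like Btg2 carry the APRO domain through which these proteins bind CNOT deadenylases. Btg1 had 51.6, 62.1 and 51.6 CPM in knockout livers, against 30.3, 34.1 and 28.9 CPM in control livers (log2 fold change 0.82 ± 0.13, adjusted p = 0.0228). Tob1 had 210, 232 and 252 CPM in knockout livers, against 147, 113 and 128 CPM in control livers (0.84 ± 0.15, adjusted p = 0.0326). Btg3 had 6.99, 7.31 and 5.11 CPM in knockout livers, against 3.22, 3.20 and 3.01 CPM in control livers (1.04 ± 0.19, adjusted p = 0.0345). In each of these genes, as in Btg2, every knockout library was above every control library, as for 13.3% of all tested genes. Btg1, Btg3 and Tob1 were named because they were called, and Btg2 was chosen on this contrast, so the separation adds nothing to the calls. Tob2, named after its values were seen because it completes the BTG and TOB genes tested here, had 55.0, 44.8 and 51.9 CPM in knockout livers, against 39.5, 59.1 and 50.4 CPM in control livers (0.03 ± 0.17, adjusted p = 0.943). Its libraries were interleaved, and whether it differed from its relatives was not tested. The calls of Btg1, Btg3 and Tob1 were each lost without knockout replicate 2, where their adjusted p were 0.132, 0.171 and 0.160.

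**Figure D5:**
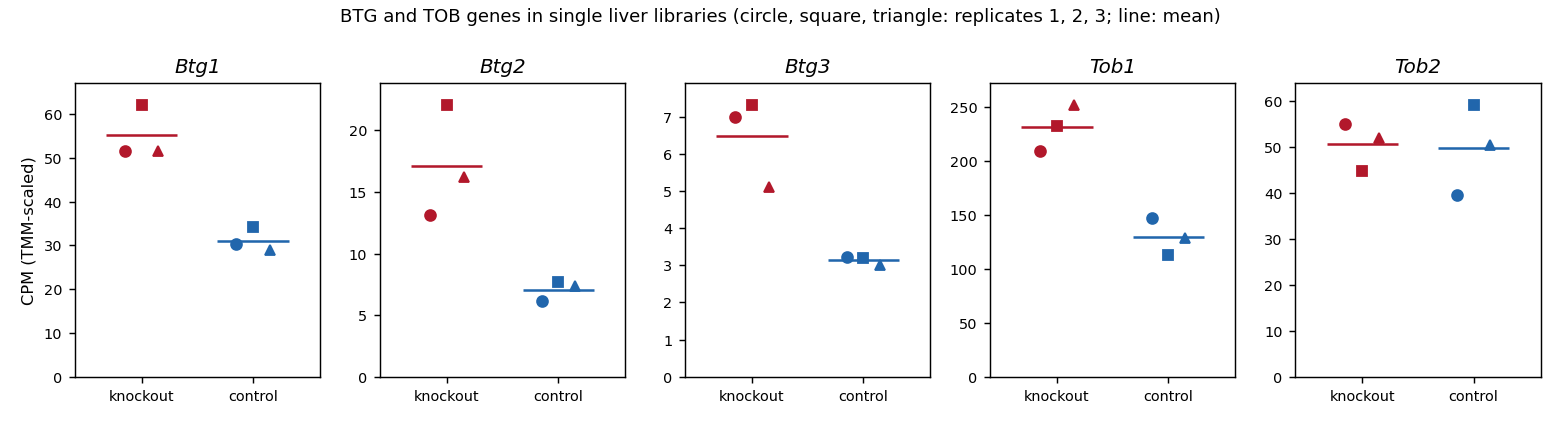
CPM of Btg1, Btg2, Btg3, Tob1 and Tob2 in single libraries, knockout left and control right, with replicates 1, 2 and 3 as circle, square and triangle and the mean as a line; each y axis starts at 0. The groups are apart for Btg1, Btg2, Btg3 and Tob1 and interleaved for Tob2.

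Markers of other cell types moved in part with these groups. Summed lymphocyte markers were 2.61 to 6.11 CPM in knockout and 6.58 to 13.7 CPM in control livers, with 0 of 5 tested genes called. Summed neutrophil markers were 3.69 to 4.78 CPM in knockout and 4.97 to 7.75 CPM in control livers, with 0 of 2 tested genes called. Both sums were lower in every knockout library than in any control library. Among single tested genes this held for 11.9%, and no such share was taken for sums. Both sums were also small, and the neutrophil marker Retnlg was at 0 in some libraries. The part of these cell types in the results was not tested. Endothelial markers summed to 211 to 258 CPM in knockout and 255 to 269 CPM in control livers, with Lyve1 called lower among 6. Kupffer cell markers gave 268 to 306 CPM in knockout and 261 to 387 CPM in control livers, stellate cell and fibroblast markers 224 to 289 CPM in knockout and 237 to 297 CPM in control livers, and cholangiocyte markers 30.1 to 41.7 CPM in knockout and 19.1 to 53.3 CPM in control livers. These sums overlapped between the groups, and no marker was at 0 in all libraries.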

How the data were processed

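Bulk RNA of 3 knockout and 3 control mouse livers was compared. TRIzol extraction was followed by oligo(dT) selection, fragmentation, random-hexamer priming and PCR, per the labels' protocols. The authors used, per the submitters' processing notes, HISAT2, Bowtie2 and RSEM 1.3.1 with GRCm38. The strand setting is not given in the sources used here, so reads of a gene and an antisense or overlapping partner cannot be told apart. Per the file headers, the authors deposited estimated counts, FPKM and TPM per gene and library, and a log2 fold change, p-value and q-value of their own comparison. Columns were matched by group and number; the column names read wild type where the labels say floxed.

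Estimated counts (4.70% to 5.12% of values per library not whole) were rounded. After filterByExpr 12173 genes were tested with TMM scaling and edgeR 4.0.16 (R 4.3.3) quasi-likelihood fits, with genotype alone in the model and p-values adjusted (Benjamini-Hochberg, 0.05) over all tested genes. SE came from the F statistic. The scripts were tested on simulated data. A count of 3 was taken as the floor; without molecular identifiers, PCR reads are not independent molecules, so floors cover counting error only. No correction by replicate number was made. The deviations of same-numbered libraries from their group means correlated at -0.160, -0.08 and -0.08, and those of differently numbered libraries at -0.046 to 0.107. Same-numbered libraries were thus not more alike. With 3 libraries per group this cannot exclude that they shared a batch, and the sources used here do not say.

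The members and lists were chosen with earlier results of these data known. Named genes were the 10 members, Selenoo and all called genes of each list. With fewer than 2 calls, the genes of smallest p were named, up to 2. The 5 tested genes most like Jun, predicted gene models left out, were added. The values of 1 gene that this rule names are not reported here. Mrtfb, Mrtfa, Ccn1 and Ccn2 were matched through older symbols. Promoters came from RefSeq (GRCm38.p6) and transcripts from GENCODE M21. The settings varied were the scaling (DESeq2 size factors, upper quartile), other count filters, the replicate block, each library left out, DESeq2 1.42.0, limma 3.58.1 (voom, log2(FPKM + 1), log2(FPKM + 0.1)) and, chosen after seeing the data, removal of length and GC trends (values found for 98.7% of tested genes).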

Additional observations from a re-analysis of the deposited data

How the results depend on the processing

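Calls of members describe the fits only, since the members were chosen on this contrast. No member was called lower in any of the 16 alternatives. The number of members called higher was 1, Jun alone, with limma on log2(FPKM + 1), and 1 to 2 with 1 library left out. Signs of small differences turned. The log2 fold change of Junb was -0.034 with upper-quartile scaling, -0.044 with the replicate block, -0.048 with limma-voom, -0.093 on log2(FPKM + 1) and -0.099 on log2(FPKM + 0.1), and -0.19 to 0.28 with 1 library left out. With 1 library left out, Ier2 was -0.17 to 0.081, Fos -0.12 to 0.59 and Egr1 -1.05 to 0.20, and Ier2 was 0.063 with length and GC trends removed.

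The 181 calls over all genes became 330 without a low-count filter, 87 with the replicate block, 634 with the DESeq2 Wald test, 110 on log2(FPKM + 1), 332 with length and GC trends removed, and 43 to 668 with 1 library left out: 59, 43 and 60 without knockout replicates 1, 2 and 3, and 361, 77 and 668 without control replicates 1, 2 and 3. The 7 related genes became 1 with the replicate block, 2 on log2(FPKM + 1), 2 on log2(FPKM + 0.1) and 1 to 10 with 1 library left out. Whether the replicate numbers pair the samples is not known, so the fall in calls with the block can neither be read as a weaker effect nor be set aside. The cause of these changes was not tested. Fos and Atf3 rest on 8 to 36 counts per library, which limits their precision.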

Other observations

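Immediate early genes outside the named set, picked after their values were seen, included Gadd45g, a stress gene with 69.9, 90.9 and 39.3 CPM in knockout livers, against 30.7, 17.9 and 3.99 CPM in control livers. Its log2 fold change of 1.94 ± 0.57 was among the largest of the related genes and was not called by edgeR (adjusted p = 0.122). Every knockout library was above every control library, as for 13.3% of all tested genes. It was called without control replicate 1. Nr4a1, an orphan nuclear receptor that is induced quickly in liver by cyclic AMP, had 3.33, 3.20 and 2.61 CPM in knockout livers, against 1.34, 1.81 and 1.50 CPM in control livers (0.96 ± 0.23, adjusted p = 0.077 by edgeR). Others of this list went down: of its 28 tested genes, 21 had a positive and 7 a negative log2 fold change. Among the 7 were Klf6 (-0.56 ± 0.17, adjusted p = 0.128 by edgeR), with every knockout library below every control library, as for 11.9% of all tested genes, and Ccn2 (-0.76 ± 0.30, adjusted p = 0.221 by edgeR). Neither was called.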
